A study of Drosophila melanogaster with 16 samples.

Results

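Of 2303 Drosophila transcripts with counted small RNA reads, 257 had a mean level in female flies at least 4 times that in males. They were selected on their levels in the 2 sexes, in the table of reads mapped to the dm6 genome. Each count was written as a percent of its library's total, transcripts with a mean of at least 20 counts over the 16 libraries were kept (1030 of 2303), and the mean percent of the 8 female libraries had to be at least 4 times that of the 8 male libraries. This rule picked 264 transcripts, or 25.6% of the 1030, and 7 of them are not described here. The 257 transcripts belong to 252 genes and are called the female-biased transcripts below. Because the sex difference chose them, it is given as a description and was not tested. Their behaviour with age and with loss of dFOXO was not used by the rule, which weighted all 8 female libraries alike.

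The libraries held total small RNA from whole flies. The control strain, called wildtype, was wDah, and dFOXO-null flies carried the foxo Δ94 null allele in the same background. dFOXO is the single fly FOXO transcription factor, which acts downstream of insulin signalling and is known for its part in stress resistance and lifespan. The young flies had an age of 5 days in replicate 1 and of 6 days in replicate 2, while both replicates of the old flies were taken at 31 days. Flies of both sexes were kept together, were mated and were held at 25°C. The labels call the replicates separate samples, so p-values measure the spread between such extracts. With 2 sexes, 2 genotypes and 2 ages there were 8 groups of 2 replicates, each RNA extract was made from 40 flies, and young and old flies of 1 genotype and replicate were siblings. As every extract was made from whole flies, fewer cells of a type and less small RNA per cell cannot be told apart.

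Small RNAs of flies fall into miRNAs, which are cut from hairpin transcripts and repress messenger RNAs, siRNAs, which Dicer-2 cuts from double-stranded RNA, and the longer piRNAs, which silence transposons in the gonad. Females carry large ovaries, and ovaries are known for abundant miRNAs of their own, for piRNAs from clusters such as flamenco and for a store of maternal RNA. RNAs of 19 to 35 nt were cut from a gel, and only reads of at most 25 nt were counted, so most piRNAs lie outside these counts. A short read on a messenger RNA, a snoRNA or a tRNA may be a siRNA, a short piRNA or a fragment of the longer RNA, and these were not separated. Strand was not given in the counts.

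Levels are reported in RPM, the reads on a transcript per 1000000 reads counted on the 2303 transcripts in that library. The sources name no molecular identifiers, so read counts are not counts of molecules. Library totals ran from 394784 to 6166465 counts (median 2204855), and replicate 2 was the shallower one, with a median of 1139668 counts against 3779166 for replicate 1. The share of rRNA ran from 6.07% to 32.8%. Young females had 6.07% to 11.1% and old ones 11.9% to 31.9%, so this share moved with the age comparisons below, and its part in them was measured only through the choice of library size. No foxo transcript had a row in the table, and the null allele was not checked in these data. The sex labels were checked with marker genes. The seminal fluid gene Acp62F held 204 reads in the males and 3 in the females, and 8 eggshell genes held 22 and 316. The 2 germline transcripts held 17 and 39, and the 6 testis transcripts 77 and 28. Of the latter, betaTub85D went the other way, with 7 reads in males and 18 in females. The RNA of male dosage compensation, roX1, described below, also went the other way, with 59 and 600. Yolk protein transcripts had no rows, and neither eggshell nor testis transcripts reached a mean of 20 counts.

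The library of dFOXO-null old males, replicate 2, stood apart from the other males. It was the shallowest library and had the highest male level for 98 of the 257 transcripts. Over the 33 transcripts with a ratio above 20 and a mean of at least 100 counts, its median level was 5.00% of the female mean, against 1.37% to 2.45% in the other 7 male libraries. Its Acp62F level was 27.9 RPM (11 reads), against 7.98 to 13.8 RPM in the other males, and its eggshell level 2.53 RPM (1 read), against 0 to 2.37 RPM. Without this library the rule picked 254 transcripts, 246 of them among the 257. Among females, wildtype old replicate 2 had the lowest share of reads on the female-biased transcripts, and without it the rule picked 264, of which 249 were shared.

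A read that aligned in several places was reported at all of them, so different transcripts can count the same reads. Of the 257 transcripts, 50 had counts identical to another member in all 16 libraries. When transcripts whose counts differed by at most 10% of their sum were joined, the 257 formed 140 families, and 31 families of 2 or more held 148 transcripts. In 24 of these 31, the members lay on more than 1 chromosome. Families were formed on counts alone, and whether their members share reads was not tested. Members of such a family are not taken as separate observations, and which of their genes gave rise to the reads is not known from these counts. For 48 of the 257, a transcript outside the list also lay within this limit.

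The female to male ratio had a median of 9.39 and ran from 4.04 to 155, against a median of 1.34 over all 1030 transcripts. It was over 10 for 123 transcripts and over 50 for 18. All 8 female libraries lay above all 8 male libraries for 164 of the 257, a separation that 18.3% of the 1030 transcripts showed and that the rule favours. Together the female-biased transcripts took 5.24% to 18.9% of the reads in a female library and 0.63% to 1.41% in a male library. Protein-coding transcripts were the largest group, with 191 of the 384 that reached a mean of 20 counts. In the same count, 25 of 71 long noncoding RNAs, 15 of 58 snoRNAs, 13 of 72 pseudogenes, 10 of 93 miRNA hairpins, 2 of 228 tRNAs, 1 of 24 snRNAs and 0 of 98 rRNAs were female-biased.

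**Figure D1:**
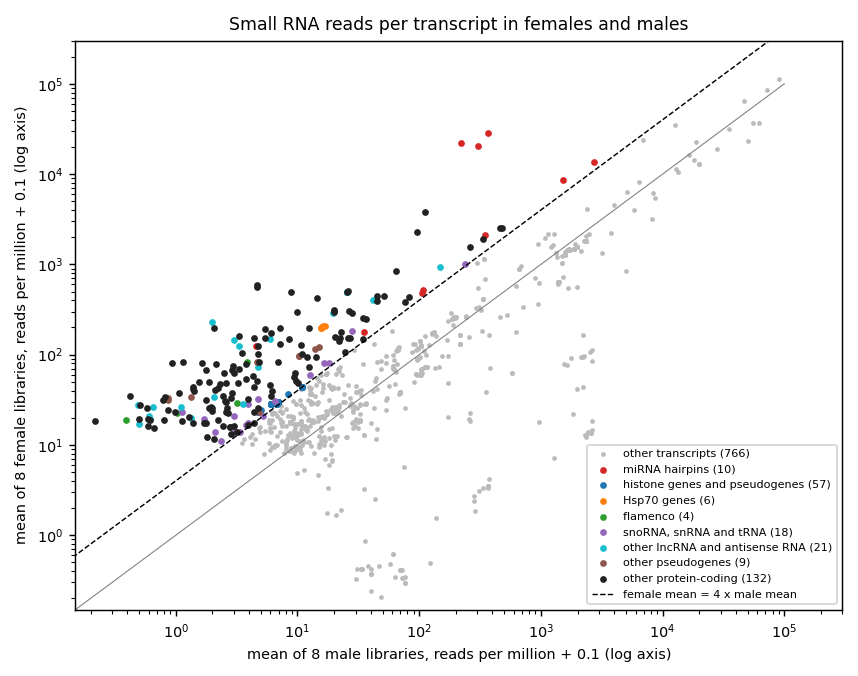
Mean level in the 8 male libraries (x, log axis) against the 8 female libraries (y, log axis), in RPM plus 0.1, for 1023 transcripts with a mean of at least 20 counts, coloured by class. The dashed line marks a female mean of 4 times the male mean. The coloured points are the 257 female-biased transcripts, and the 3 red points at the top, mir-989, mir-994 and mir-318, have means of 20515 to 28251 in females.

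The 10 miRNA hairpins held more reads than any other class of female-biased transcripts in each female library. Their summed level was 25021 to 150977 RPM in females (median 106602) and 2923 to 9295 RPM in males (median 5929). The 3 with the highest levels were mir-989, mir-994 and mir-318, miRNAs known from the ovary, of which miR-989 is known to act in the migration of border cells. mir-989 (2R, 14145351 to 14145524) had 6490 to 59709 RPM in females and 52 to 1229 RPM in males. The highest male value of all 3 was that of the dFOXO-null old male library of replicate 2, and without it the ratio of mir-989 rose from 77.3 to 117, that of mir-994 from 99.5 to 151 and that of mir-318 from 67.3 to 102. mir-994 and mir-318 lie 75 bases apart on 3R.

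The other 7 hairpins had smaller ratios. mir-9c and mir-306, neighbours on 2L, reached means of 13533 and 8544 RPM in females at ratios of 4.92 and 5.60, while mir-79 and mir-9b, which lie between 66 and 729 bases from them, stayed under the threshold at 2.91 and 3.46. mir-312, mir-310 and mir-313 of the mir-310 cluster on 2R were female-biased at ratios of 6.09, 5.12 and 27.6, and mir-311 between them reached 3.49. mir-991 and mir-2498, which follow within 1360 bases, went the other way, with 5.66 and 3.14 RPM in females against 75.1 and 35.3 RPM in males. Among all 93 hairpins, 66 had a ratio below 1.

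**Figure D2:**
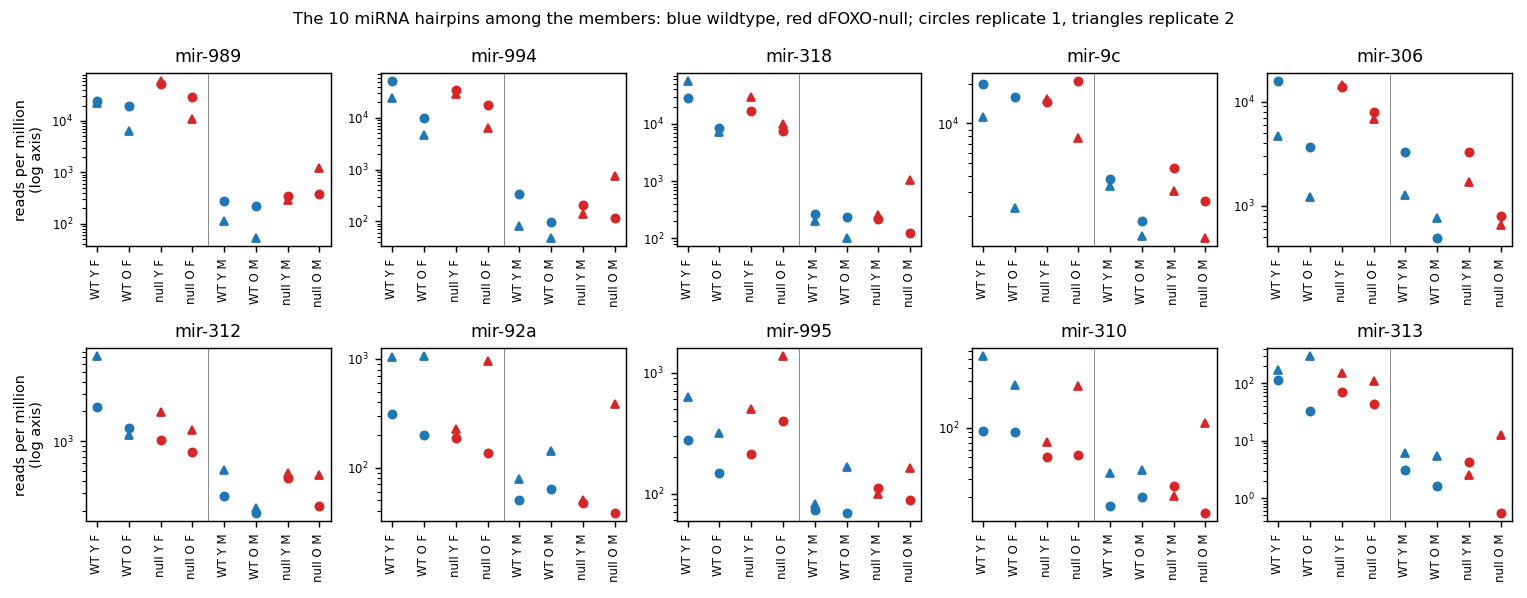
RPM (log axis) of the 10 female-biased miRNA hairpins in the 8 groups (WT wildtype, null dFOXO-null, Y young, O old, F female, M male). Blue marks wildtype and red dFOXO-null, circles are replicate 1 and triangles replicate 2. The triangle of old dFOXO-null males is the highest male point for mir-989, mir-994 and mir-318, at 1229, 757 and 1026.

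All 4 listed isoforms of flamenco, the X-linked piRNA cluster of ovarian follicle cells, were female-biased. The isoforms share a start at X, 21631891, and their ratios were 22.2, 9.48, 24.3 and 64.4. The most abundant of them had 44.4 to 179 RPM in females, highest in dFOXO-null old replicate 2, and 0.973 to 17.7 RPM in males. The summed level of the 4 was 105 to 273 RPM in females. In males it was 2.51 to 5.30 RPM in 7 libraries and 35.5 RPM in the library that stood apart. Without that library the ratio of the most abundant isoform rose from 22.2 to 47.9, and the isoform at 9.48 rose to 29.8. roX1, the noncoding RNA of the male dosage compensation complex, was also on the female side. It had 10.9 to 54.1 RPM in females and 1.75 to 5.07 RPM in males, a ratio of 8.01 with no overlap between the sexes. Exons of roX1, like those of the flamenco isoforms, overlap exons of other genes on both strands. Which gene gave the reads is not known from these counts. Of 22 ribosomal protein transcripts in the table, 4 reached a mean of 20 counts, and RpL5 (ratio 29.8) and RpLP2 (5.38) were female-biased.

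Among protein-coding transcripts, CG7564 had the highest level. It had 2290 to 5089 RPM in females and 62.8 to 324 RPM in males, and the highest male value was again the dFOXO-null old male library of replicate 2 (94.3 RPM was the highest of the others). Sec20, which encodes a SNARE protein of vesicle transport, and Kif3C, which encodes a kinesin motor, formed a family on 3R and 4. Sec20 ran from 1167 to 4730 RPM in females and from 268 to 615 RPM in males, and Kif3C differed little from it, at 1130 to 4848 and 267 to 688 RPM. The same held for the cytochrome P450 gene Cyp6a14 and CG40191 on 2R, with female means of 1934 and 1563 RPM. Muc12Ea, a mucin gene on the X, had 1346 to 3453 RPM in females, had no read in 4 male libraries and reached 719 RPM in the dFOXO-null old males of replicate 2. Its ratio was 23.8 with this library and 297 without it.

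The largest ratios came from transcripts that were almost empty in males. Glos reached 155, at 4.5 to 40.4 RPM in females and at most 0.541 RPM in males. Among transcripts with a mean of at least 100 counts the highest ratios were those of CG40813 (128) and CG41562 (125), which share a family on the X, lncRNA:CR45174 (121) on 3L, CG10993 (102) on the X, mir-994, and olf186-M (97.1) on 2R. CG40813 had 442 to 791 RPM in females and 1.64 to 12.7 RPM in males. The ratio was 78.3 for Muc68Ca, a further mucin gene, and 57.5 for CG32212.

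Histone genes made up 57 of the 257 transcripts but 4 families, as the copies of the histone cluster on 2L had like or identical counts. All 23 His1 and all 23 His3 copies were female-biased, with ratios of 4.27 to 4.40 and 4.69 to 4.78, and so were 4 of 7 histone pseudogenes. The His2A copies lay on the threshold. Of 20 copies with ratios between 3.94 and 4.07, 7 were inside and 13 outside. None of the 23 His2B copies (2.86 to 2.90) or 22 His4 copies (2.06 to 3.04) reached it, and none of the 119 histone transcripts had a ratio below 1. As an example, His1:CG33864 had 12.4 to 60.4 RPM in females and 2.51 to 9.47 RPM in males. At the threshold itself, Pkcdelta (4.04), His2A:CG33820 (4.07) and His2A:CG33829 (4.07) lay just inside, and His2A:CG33865, His2A:CG33847 and His2A:CG33835, all at 3.98, just outside.

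All 6 Hsp70 genes, which encode the heat-inducible chaperone, were female-biased at ratios of 12.6 to 13.0 and had like counts in 1 family. Atf6, a transcription factor gene of the unfolded protein response on 2R, joined it by its counts alone. In dFOXO-null young females, replicate 1, Atf6 had 508 counts against 314 for Hsp70Bb. Whether it shares reads with the Hsp70 genes was not tested. Hsp70Ab had 211 and 327 RPM in young wildtype females, 275 and 320 RPM in old ones, 81.2 and 120 RPM in young dFOXO-null females and 99.2 and 235 RPM in old ones. In males it ran from 6.57 to 27.9 RPM. The 15 snoRNAs belong to a class of which most, but not all, guide the modification of rRNA and snRNA. They were led by snoRNA:U3:9B (583 to 1949 RPM in females, ratio 4.24), snoRNA:Psi28S-3342 (6.47) and the neighbours snoRNA:U29:54Eb and snoRNA:U29:54Ec (4.44 and 4.90). The other noncoding members were the snRNA snRNA:LU (4.73) and the tRNAs tRNA:Cys-GCA-4-1 (6.81) and tRNA:Cys-GCA-2-1 (4.55), both for cysteine.

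A group of low counts varied together. Starting from opa, the pair-rule gene odd-paired, 18 further transcripts followed its level across the 8 female libraries with a Pearson correlation of at least 0.95 of log2(RPM + 1), and all 18 of the 1030 transcripts that did so were female-biased. The group was picked after its values were seen. Its points share library and depth, opa is itself a member, and its 19 transcripts fall into 6 families on 5 chromosome arms. The largest of these families holds 9 of them. Whether their like levels come from reads counted for several transcripts was not tested, and which genes gave the reads is not known. Cdk8, MED23 and MED25 encode parts of the Mediator complex, Nf-YC a subunit of a CCAAT-binding factor, odd and btd regulators of embryonic segmentation and head development, Hey a Notch target, sd and wts parts of the Hippo pathway, and Cpr47Ee, dy and m proteins of the cuticle. The rest were dar1, Rbp6, CG17839, CG15725, CG6026 and CG4744. Their summed level was 202 and 420 RPM in young wildtype females, 37.2 and 651 RPM in old ones, 568 and 924 RPM in young dFOXO-null females and 286 and 1099 RPM in old ones. Replicate 2 was higher than replicate 1 in each of these 4 groups, and males ran from 5.24 to 160 RPM.

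**Figure D3:**
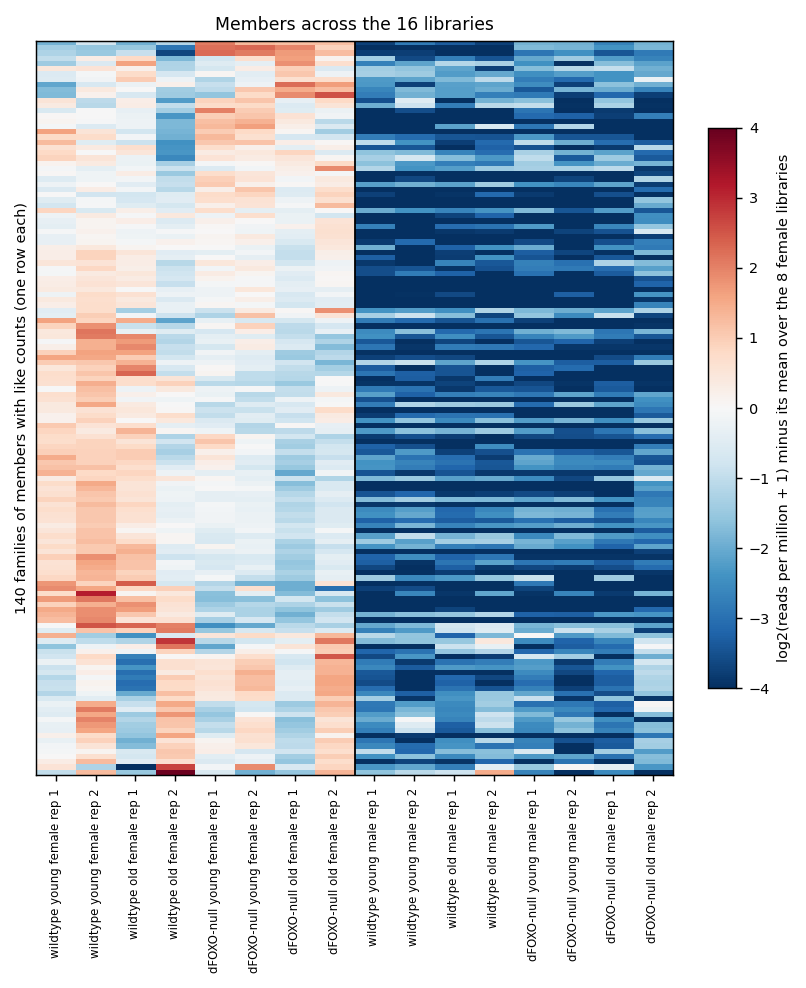
Level of the 140 families (rows, mean over the members of a family) in the 16 libraries (columns), as log2(RPM + 1) minus its mean over the 8 female libraries. Males, to the right of the black line, are below females in nearly all rows, as the rule requires. Rows at the top are higher in dFOXO-null than in wildtype females, and a block near the bottom is low in wildtype old females, replicate 1.

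Position was compared next. Within 5 Mb of the centromere end of the 5 large chromosome arms lay 106 of 248 (42.7%), against 118 of 705 (16.7%) of the others that reached a mean of 20 counts. When histones were left out on both sides it was 49 of 191 (25.7%) against 57 of 643 (8.86%). Among them were lt, rl, a MAP kinase gene, and l(3)80Fj, all known from heterochromatin. Of 163 protein-coding and long noncoding members outside the histones, 61 (37.4%) had an exon that overlaps an exon of another gene on the opposite strand, against 34 of 180 (18.9%) of such transcripts outside the list. The members were also longer, with a median of 2426 exon bases against 1692. These shares were not tested. They count each transcript, so families of like counts and the 4 flamenco isoforms enter more than once. Of 59 transcripts on the Y that reached a mean of 20 counts, 3 were members, against 25.6% of the 1030 that met the rule. They were the pseudogenes CR41507, CR41508 and CR41509, which the rule requires to be higher in females, where no Y chromosome is present. These 3 shared a family with CR33317 on 2L and Cpsf160, a gene of mRNA 3' end processing, on 2R.

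The next question was whether the female-biased transcripts differ between dFOXO-null and wildtype flies, a comparison called dFOXO loss here. Genotype and fly line coincide in this design. Loss of dFOXO therefore cannot be told apart from any other difference between the lines. In females, averaged over both ages, 7 of the 257 were higher and 12 lower in dFOXO-null flies at an adjusted p under 0.05 in edgeR's quasi-likelihood test. Of all 1566 transcripts tested, 0.766% were higher and 2.68% lower. The 7 higher transcripts came from 3 families and the 12 lower ones from 9. The median log2 fold change of the 257 was -0.98, and over all 1566 it was -0.52. Over the 140 families it was -0.55, and over the members without histones -0.60. The median of the 257 was -0.58 with the scaling factors of TMM, -0.53 with DESeq2 and -0.01 where spike-in reads set the library size.

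The strongest rise was shared by Gas8, lncRNA:CR45222, lncRNA:CR44657 and Ogdh, a family on X, 3R and 3L. Gas8 is related to a protein of the ciliary axoneme, and Ogdh encodes an enzyme of the citric acid cycle. Gas8 had 48.9 and 44.8 RPM in young and 46.5 and 20.0 RPM in old wildtype females, against 663 and 716 RPM in young and 559 and 277 RPM in old dFOXO-null females. All 4 dFOXO-null libraries were above all 4 wildtype libraries, and the log2 fold change was 3.76 ± 0.45 (SE, edgeR adjusted p = 0.000272, n = 4 and 4). That of lncRNA:CR45222 was 4.33 ± 0.50 with the same adjusted p.

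The 4 transcripts of this family were the 4 that rose with dFOXO loss in old females taken alone (0.319% of all transcripts rose), with log2 fold changes of 3.09 to 4.20, and no member fell (0.192% of all did). In young females they rose together with Acox3, an acyl-CoA oxidase gene (5 transcripts, against 0.383% of all). Without wildtype old female replicate 2 or without dFOXO-null old female replicate 1, no member passed in old females. In young females only tRNA:Cys-GCA-4-1 passed without wildtype young female replicate 1, and no member without any 1 of the other 3 libraries. The calls of this family over both ages held without each female library in turn.

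Acox3 and syd, an adaptor of kinesin motors, formed the second family. syd had 9.09 and 7.47 RPM in young and 11.5 and 0.690 RPM in old wildtype females, and 121 and 105 RPM in young and 81.5 and 58.2 RPM in old dFOXO-null females. Its log2 fold change was 3.58 ± 0.59 (edgeR adjusted p = 0.00206). The antisense RNA asRNA:CR45137 on 2R went from 2.50 to 6.84 RPM in the wildtype libraries to 29.2 to 53.0 RPM in the dFOXO-null libraries, a log2 fold change of 3.12 ± 0.59 (adjusted p = 0.00617). The groups did not overlap for either, but asRNA:CR45137 did not pass without wildtype young female replicate 1.

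The largest fall with dFOXO loss was that of tRNA:Cys-GCA-4-1. It had 14.1 and 87.1 RPM in young and 76.2 and 61.4 RPM in old wildtype females, and 1.80 and 2.73 RPM in young and 6.18 and 5.29 RPM in old dFOXO-null females. The log2 fold change was -4.01 ± 0.57 (edgeR adjusted p = 0.000709), although the wildtype young replicates differed widely. Its dFOXO-null female levels were about as low as those of males, so it met the rule through the wildtype females. lncRNA:CR45174 fell from 228 to 600 RPM in wildtype to 42.2 to 82.6 RPM in dFOXO-null females (-2.88 ± 0.47, adjusted p = 0.00206). These were also the 2 members that fell in young females alone, against 0.255% of all transcripts.

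CG32212 had 663 and 943 RPM in young and 1242 and 527 RPM in old wildtype females. The dFOXO-null values were 129 and 161 RPM in young and 149 and 188 RPM in old females, without overlap (-2.43 ± 0.44, edgeR adjusted p = 0.004). CG44325 fell from 265 to 683 RPM to 60.4 to 78.2 RPM (-2.84 ± 0.48, adjusted p = 0.00227). Kmn1, which encodes a kinetochore protein, shared a family with CG11000 and CG6966 on X and 3R, and the 3 fell by 2.34, 2.31 and 2.29 on the log2 scale. The other transcripts that fell were CG12123, olf186-M, the pseudogenes CR42722 and CR42723, and CycK, a cyclin gene, with log2 fold changes from -2.60 to -1.87. CG12123 did not pass without wildtype young replicate 1 or dFOXO-null old replicate 2, olf186-M lost its call without any 1 of 4 female libraries, and the last 3 passed only without wildtype old replicate 2 among the sets with 1 library left out.

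**Figure D4:**
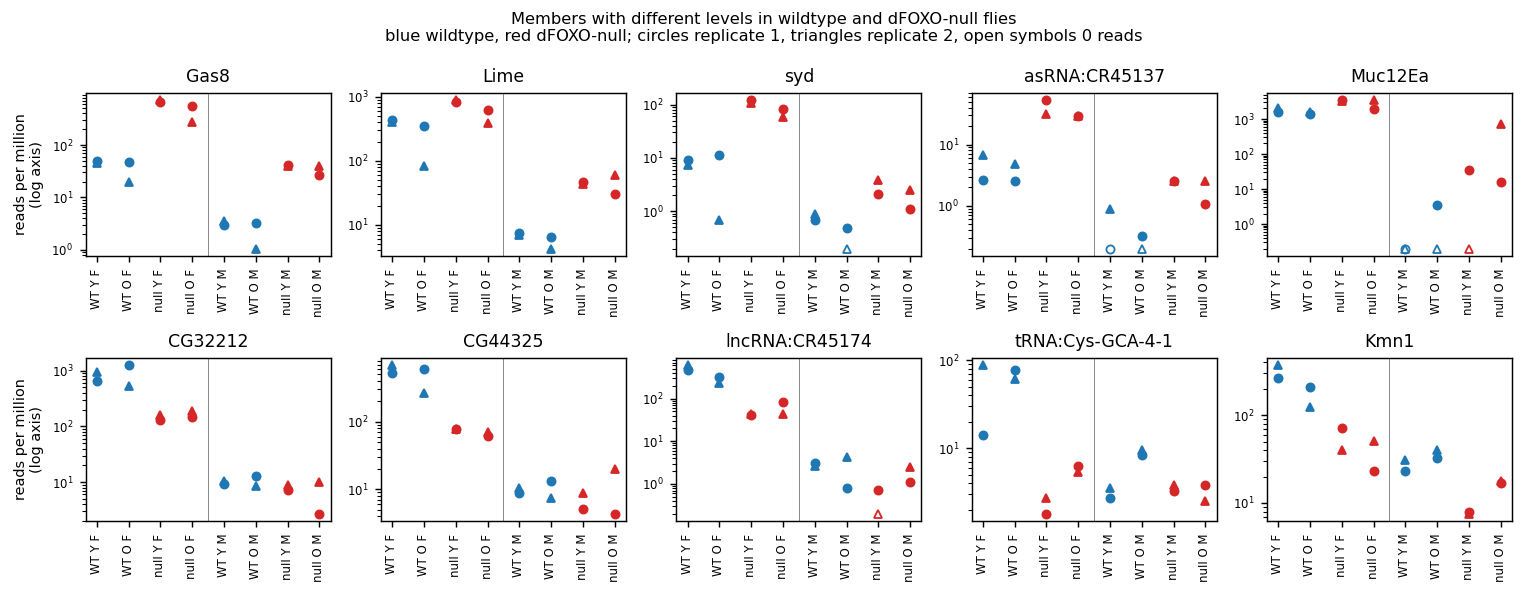
RPM (log axis) in the 8 groups for 10 female-biased transcripts that differed between genotypes in females or males, 1 for most of the families (WT wildtype, null dFOXO-null, Y young, O old, F female, M male). Blue marks wildtype and red dFOXO-null, circles are replicate 1, triangles replicate 2, and open symbols at 0.2 stand for 0 reads. In females, red lies above blue in every library for Gas8, syd and asRNA:CR45137 and below it for CG32212, CG44325, lncRNA:CR45174, tRNA:Cys-GCA-4-1 and Kmn1.

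More transcripts were separated by genotype than passed the test. For 79 of the 257, from 24 families, all 4 dFOXO-null female libraries were below all 4 wildtype ones, against 11.4% of the 1566 transcripts. For 8, from 4 families, all 4 dFOXO-null libraries were above, against 1.28%. Most of the 79 were histone copies of like counts, 47 of them in 1 family, so their share rests largely on 1 gene cluster. All 57 histone transcripts had a negative log2 fold change, between -1.38 and -1.18, and none passed without a block, the lowest adjusted p being 0.0769. The 6 Hsp70 genes lay between -1.13 and -0.91 (lowest adjusted p = 0.0998), but with spike-in reads as library size 2 of them were above 0 and their median was -0.01. The histone median was then -0.31, with all 57 still below 0. Of the 10 miRNA hairpins 5 lay above and 5 below 0 (median -0.07), with a median of 0.39 under DESeq2 and of 1.00 under spike-in library sizes, where 9 were above 0, and of the 4 flamenco isoforms 3 above and 1 below, none of them past the test. roX1 had a log2 fold change of -0.93 ± 0.48 (edgeR adjusted p = 0.237).

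The count of members called depended on the fit. Without wildtype old female replicate 2, the library with the lowest share of female-biased reads, 77 members passed (24 higher, 53 lower). With TMM 7 were higher and 7 lower (13 and 13 of all 1566 transcripts), and with DESeq2 12 and 9 (25 and 22 of all). The median of all transcripts was -0.11 and 0.00 under these, in place of -0.52, and 0.56 where library size was set by spike-in reads, which left no member past the test. With siblings as a block 13 members were higher and 106 lower (26 and 267 of all), the 19 called without it among them, and 55 histone and all 6 Hsp70 transcripts passed. That fit takes the spread between the sibling groups of a genotype out of the error, so its p-values for genotype do not cover it. With this block 7 were higher and 9 lower in young females (10 and 29 of all), and 7 and 8 in old ones (12 and 40 of all).

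**Figure D5:**
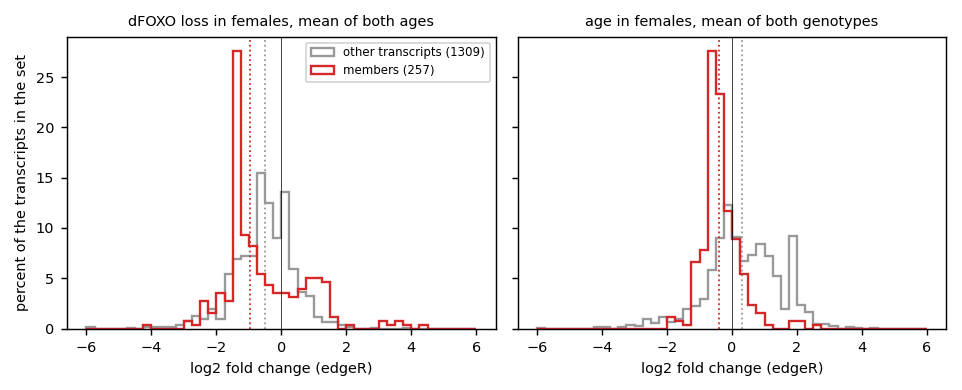
Share of transcripts (percent, y) by log2 fold change (x, edgeR) for the 257 female-biased transcripts (red) and the other 1309 transcripts tested (grey), for dFOXO loss (left) and age (right) in females. Dotted lines mark the medians, which are -0.98 and -0.49 on the left and -0.41 and 0.31 on the right. The tall red peak on the left is the histone genes.

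In males, 10 members were higher in dFOXO-null flies, averaged over both ages, and none was lower. Of all transcripts 0.766% were higher and 0.958% lower. At an unadjusted p under 0.05, 21 members were higher and 34 lower (38 and 96 of all), and DESeq2 gave the same counts of 10 and 0. The Gas8 family was again among them. Gas8 had 3.04 and 3.49 RPM in young and 3.24 and 1.06 RPM in old wildtype males, and 42.0 and 39.0 RPM in young and 26.5 and 40.5 RPM in old dFOXO-null males, a log2 fold change of 3.65 ± 0.50 (edgeR adjusted p = 0.00121).

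A family of 5, Lime, a zinc finger gene known from metabolism and immunity in blood cells, with lncRNA:CR45570, lncRNA:CR44462, CG12885 and lncRNA:CR45309, rose in males by log2 fold changes of 2.80 to 2.88. Lime had 4.24 to 7.44 RPM in the 4 wildtype and 29.8 to 60.8 RPM in the 4 dFOXO-null male libraries (edgeR adjusted p = 0.0053). In females it had 84.2 to 433 and 387 to 890 RPM, which overlap, and a log2 fold change of 1.12 ± 0.45 (adjusted p = 0.126). The difference between the sexes was not tested. Without wildtype old male replicate 2, the family lost its calls and with Muc12Ea 6 of the 10 were gone.

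Muc12Ea had the largest fold change in males, 7.89 ± 1.5 (edgeR adjusted p = 0.00884), and most of its reads came from 1 library. Its 4 wildtype male levels were 0, 0, 3.57 and 0 RPM and its dFOXO-null levels 34.5 and 0 RPM in young and 16.2 and 719 RPM in old males. Without dFOXO-null old male replicate 2, the library that stood apart, it did not pass the test, nor without either young wildtype library, wildtype old replicate 2 or dFOXO-null young replicate 1.

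The other question was how age affects the female-biased transcripts. In wildtype females alone and in dFOXO-null females alone, no member passed the test, and no transcript of the 1566 did (background 0% in both directions). At an unadjusted p under 0.05 3 members were higher and 5 lower in wildtype females (126 and 85 of all) and 4 and 4 in dFOXO-null females (201 and 19 of all). DESeq2 called 2 members lower in wildtype females (14 of all higher, 33 lower) and 0 in dFOXO-null females (0 and 1 of all). Averaged over the genotypes, 2 members were higher (9.51% of all transcripts were) and 3 lower (1.53% of all) in old females. Old libraries lay all below young ones for 3 members (1.09% of all transcripts) and all above for 1 (9.32% of all). With siblings as a block, which pairs young and old flies of 1 genotype and replicate, 2 were higher and 10 lower (229 and 48 of all 1566).

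The median log2 fold change with age in females was -0.41 for the 257, -0.38 for the 140 families and 0.11 for all transcripts, and 79.4% of the 257 had a negative value, against 46.0% of all. In young wildtype females the 257 took 18.9% and 18.7% of the reads, and in old ones 10.7% and 5.24%. In dFOXO-null females the shares were 17.1% and 18.9% in young and 11.1% and 7.83% in old flies. All 4 old libraries were thus below all 4 young ones in this sum, in which the hairpins were the largest class, and the share of rRNA was higher in all 4 old libraries. The 247 members without the hairpins took 4.56% and 5.93% in young and 4.72% and 2.74% in old wildtype females. In dFOXO-null females they took 3.78% and 3.80% in young and 2.54% and 3.27% in old flies. Old and young libraries thus overlapped without the hairpins. With library sizes that leave rRNA out, the median was -0.13 for the 257 and 0.41 for all. With spike-in reads as library size it was -2.41 and -1.97.

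mir-318 fell with age, and its neighbour mir-994 showed similar values. mir-318 had 28787 and 56007 RPM in young and 8424 and 7270 RPM in old wildtype females, and 16683 and 29566 RPM in young and 7595 and 9790 RPM in old dFOXO-null females. No old library reached a young one, and the log2 fold change was -1.92 ± 0.59 (edgeR adjusted p = 0.0483, and 0.0197 with siblings as a block). For mir-994 it was -1.87 ± 0.66 (adjusted p = 0.0866, and 0.0301 with the block). mir-306 also passed with the block (-1.5 ± 0.44, adjusted p = 0.0273), and mir-989 had -1.15 ± 0.61 (adjusted p = 0.257 without the block).

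The other members that fell with age were CG12123 (-1.77 ± 0.52, edgeR adjusted p = 0.0472) and lt (-1.61 ± 0.45, adjusted p = 0.0472), the latter a gene of vesicle sorting to the lysosome that lies in heterochromatin. lt had 176 and 174 RPM in young and 94.7 and 26.2 RPM in old wildtype females, and 252 and 162 RPM in young and 64.7 and 61.7 RPM in old dFOXO-null females, without overlap. With the block, the family of CR41507, CR41508, CR41509, CR33317 and Cpsf160 joined them, with log2 fold changes of -1.22 to -1.11.

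Against this trend, snoRNA:Psi18S-1820 and snoRNA:185 rose, the latter only with library sizes from RNA reads, since with spike-in reads its log2 fold change was -0.63. snoRNA:Psi18S-1820 had 2.17 and 7.47 RPM in young and 10.2 and 14.5 RPM in old wildtype females, and 5.99 and 10.5 RPM in young and 61.6 and 41.5 RPM in old dFOXO-null females (2.03 ± 0.61, edgeR adjusted p = 0.0472). The old and young groups overlapped across genotypes by 1 library. snoRNA:185 had 14.1 to 21.7 RPM in young females but 13.0 and 235 RPM in old wildtype and 23.9 and 138 RPM in old dFOXO-null females (2.52 ± 0.78, adjusted p = 0.0473, and 0.068 with the block). Its high values were both of replicate 2. Both snoRNAs met the rule largely through the old females, so their place on the list is not independent of this comparison. snoRNA:Psi18S-1820 had only 10 to 27 reads in the young female libraries. Of the 18 snoRNA, snRNA and tRNA members, 12 had a positive and 6 a negative log2 fold change with age (median 0.68, but -0.81 with spike-in reads as library size).

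These age calls were fragile. mir-318 and CG12123 lost theirs without any 1 of the 8 female libraries. Without wildtype old female replicate 1 there were 27 (4 higher, 23 lower), without dFOXO-null young female replicate 2 there was 1, and without any 1 of the other 6 female libraries none. DESeq2 gave 1 member higher and 42 lower (131 and 136 of all), TMM none (0 and 2 of all), and library sizes without rRNA 3 higher and none lower (178 and 8 of all).

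In males, averaged over genotypes, 1 member rose with age, snRNA:LU (0.575% of all transcripts rose), and none fell (0.128% of all). It had 0.235 to 1.26 RPM or no read in young males, and 11.2 and 17.0 RPM in old wildtype and 1.62 and 20.3 RPM in old dFOXO-null males (4.87 ± 1.07, edgeR adjusted p = 0.0464). In females its log2 fold change was 1.98 ± 0.70 (adjusted p = 0.0884, and 0.00506 with the block, where it passed). With the block 3 members rose in males, snRNA:LU, CG30345 and RpLP2, and 2 fell, mir-306 and CG12374, against 195 and 27 of all 1566 transcripts. The call of snRNA:LU was lost when any male library but dFOXO-null old male replicate 1 was left out. The median log2 fold change of the 257 with age in males was -0.01, against 0.36 for all, and its sign depended on scaling. It was -0.65 with TMM, -0.69 with DESeq2 and 0.32 without rRNA, against -0.30, -0.28 and 0.67 for all, and -2.40 against -1.96 with spike-in reads.

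Whether age acted differently in the genotypes was tested in females as an interaction. No member and no other transcript passed (background 0%). At an unadjusted p under 0.05 edgeR gave 2 members, and DESeq2 called none. The median of this difference was 0.09 on the log2 scale for the 257 and 0.15 for all transcripts, but -0.58 and -0.47 with TMM, -0.26 and -0.11 with DESeq2, and 0.49 and 0.87 with spike-in reads.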

How the data were processed

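The authors trimmed adapters (Trim Galore), removed reads over 25 nt and aligned the rest to dm6 with bowtie at up to 1 mismatch, keeping every valid alignment. featureCounts gave the counts per transcript. Its setting for reads with several alignments is not given in the sources used here. The deposited tables hold raw counts and, separately, the percent of mapped reads, against which the percents recomputed here were checked. Transcripts were matched to the BDGP6 annotation by ID (2299 of 2303), and coordinates are from it.

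Counts were tested with edgeR 4.0.16 in R 4.3.3 (glmQLFit and glmQLFTest) in 1 fit of all 16 libraries with 8 group coefficients, the column total as library size and a mean of at least 5 counts (1566 transcripts, all 257 members among them). P-values were two-sided and adjusted by Benjamini-Hochberg over the 1566, with a threshold of 0.05. The standard error is the log2 fold change over the square root of F. The fit was also run on simulated counts with a common dispersion and without sex differences, shared reads or outlying libraries. That run does not measure the error rates of the fit on these libraries. Alternatives were TMM, DESeq2 1.42.0, other library sizes and filters, replicate blocks and leaving out libraries. The deposited miRNA and transposon tables gave only the spike-in counts.

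Young and old siblings of a genotype and replicate were paired as the labels state. The correlation of the replicate difference between siblings was 0.264 and 0.188 in females and 0.162 and 0.391 in males.

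The members, gene lists and tests were chosen with earlier results of these data known. Named are the 10 members with the highest female level, the 10 with the highest ratio at a mean of at least 100 counts, up to 5 called per comparison and direction, members of short gene lists and the 4 highest of long ones, and 3 on each side of the threshold. Hsp70, miRNA hairpins, the opa group, the families and other names were added after values were seen. Lists of translation factors (0 of 13 at a mean of 20 counts), germline genes (0 of 2) and endo-siRNA hairpins (0 in the table) gave no member.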

Additional observations from a re-analysis of the deposited data

How the results depend on the processing

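Counts of members called moved with scaling, tool and block, and depth limits low members, whose male counts were often 0. Per comparison, the total called was as follows. Age in females, mean of both genotypes, had 5, and gave 0 with TMM, 43 with DESeq2, 3 without rRNA, 0 with spike-ins as library size, 3 with no filter, 0 with libraries of 1 sex, 13 with the replicate block and 12 with the replicate block within genotype (0 to 27 with 1 library left out). Age in wildtype females gave 2 with DESeq2 and age in dFOXO-null females 3 with the replicate block, in place of 0. dFOXO loss in young females had 7, and gave 11 with DESeq2, 0 with spike-ins, 14 at a mean of 20 counts, 0 with 1 sex, 16 with the replicate block and 16 with the block within genotype (0 to 1 with 1 library left out). dFOXO loss in old females had 4, and gave 15, 0, 8, 0, 17 and 15 in these settings (0 to 6 left out). dFOXO loss in females, mean of both ages, had 19, and gave 0 with spike-ins, 37 at a mean of 20 counts, 127 with the replicate block (13 higher, 114 lower) and 119 with the block within genotype (14 to 77 left out). Age in males had 1, and gave 0 with TMM, 7 with DESeq2, 0 with spike-ins, 6 with the replicate block and 5 with the block within genotype (0 to 1 left out). dFOXO loss in males had 10, and gave 1 with spike-ins (4 to 10 left out). The interaction gave 0 in each setting. The replicate number is no stated pairing between genotypes, where the correlation of replicate differences was 0.597 and 0.481 in females and 0.541 and 0.0444 in males. Spike-in reads were few, 91 to 1970 per library, and with them the log2 fold change of snoRNA:185 with age turned from 2.52 to -0.63. The 257 members became 383 at a mean of 5 counts and 97 at 100, 194 with medians, 245 without rRNA and 246 or 254 from 1 replicate. Leaving out dFOXO-null old male replicate 2 (254) or wildtype old female replicate 2 (264) was chosen after seeing the data. The cause of these shifts was not tested.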
